A study of Mus musculus with 6 samples.

Results

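The cell cycle and Myc family genes described here were 35 named genes, picked by symbol from the 18211 genes of the table, and all 35 passed the filter on low values that left 13792 genes for testing. The choosing rule names them by what they encode and uses no measured value: 8 cyclins, 4 cyclin-dependent kinases (Cdks), 5 Cdk inhibitors, 6 subunits of the MCM helicase, 3 other S-phase genes, 6 mitosis genes and the 3 Myc family genes. In libraries of OPCs isolated from DISC1-Δ3 mice, 3 Cdk inhibitors were higher than in wildtype libraries, led by Cdkn1a at 1.58-fold. The mitotic kinases Plk1 and Aurkb, the kinase Cdk4 and Mycn were also higher, and Cdk6, Mycl, Mki67, Mcm3 and Mcm5 were lower. The other 23 genes, among them all 8 cyclins and Myc, did not pass the threshold. The 12 genes that passed were 34.3% of the 35, against 39.9% of all tested genes. Calls of Aurkb, Mki67 and Mcm5 were each lost in 10 of 17 alternatives to the test, and those of Cdkn1a, Cdkn1c, Plk1 and Mycn held in all 17.

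Oligodendrocyte precursor cells (OPCs) are the dividing cells of the oligodendrocyte lineage, and they leave the cell cycle when they differentiate. Cyclins switch on Cdks: D-type cyclins with Cdk4 and Cdk6 act in G1, E-type cyclins with Cdk2 at entry into S phase, and A- and B-type cyclins with Cdk1 in the steps up to mitosis, while proteins of the Cip/Kip and INK4 families hold Cdks back. Myc, Mycn and Mycl are related transcription factors that bind DNA with Max and promote growth and division.

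Libraries were made from wildtype mice (3 libraries) and DISC1-Δ3 mice (3 libraries), all of the C57BL/6 strain and taken at postnatal day 7. The DISC1-Δ3 mice carried NG2-CreERTM and 1 floxed allele of DISC1 exon 3 (DISC1 exon3 fl/+). Tamoxifen is thus meant to remove exon 3 from 1 allele in cells that express Cspg4, the gene of NG2. Pericytes can express Cspg4 as well, but the study reports a rise of DISC1-Δ3 mRNA only in OPCs among the cell types it isolated, which included pericytes. Both groups received tamoxifen by gavage on 4 consecutive days (P4 to P7), and the study's text describes its wildtype mice as lacking CreERT, so the effects of the recombinase and of the deletion cannot be told apart. OPCs were selected by immunopanning, in which cells stick to a plate coated with an antibody to PDGFRα, and how many animals went into a library is not given in the sources used here. P-values therefore measure the spread between these libraries, which may be technical.

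Each library held 13716619 to 16417219 reads assigned to genes. Disc1, counted over the whole gene and so no direct check of exon 3, was at 3.34 to 3.81 RPKM (reads scaled by transcript length and library total) in wildtype and 2.44 to 2.86 in DISC1-Δ3 libraries (log2 fold change -0.45, edgeR adjusted p = 5.28e-04). DISC1-Δ3 replicate 3 stood apart from its group: counts differed from those of replicates 1 and 2 by a chi-square of 5.39 and 4.99 per degree of freedom, against 1.80 to 2.97 for the other 4 pairs within a group. All 8 markers of OPCs were detected, and their summed level was 429 to 441 RPKM in wildtype and 576 to 615 in DISC1-Δ3 libraries (6 of 8 higher). Other cells were present in every library: the 10 microglial markers summed to 12317 to 12572 RPKM in wildtype and 8682 to 9016 in DISC1-Δ3 libraries, with all 10 lower, and the 6 erythroid markers to 9343 to 9567 and 16649 to 18149 RPKM, with all 6 higher. Mature oligodendrocyte markers summed to 429 to 434 RPKM in wildtype and 339 to 360 in DISC1-Δ3 libraries (4 of 7 tested markers lower), and pericyte and fibroblast markers to 109 to 116 and 151 to 157 RPKM (3 of 6 higher). Neuronal markers summed to 357 to 361 and 426 to 446 RPKM (6 of 9 higher), endothelial markers to 94.4 to 98.4 and 125 to 126 RPKM (3 of 6 higher), astrocyte markers to 1815 to 1850 and 1746 to 1760 RPKM (1 of 7 higher, 5 lower) and premyelinating oligodendrocyte markers to 134 to 138 and 131 to 132 RPKM (1 of 6 higher, 3 lower). No marker was at 0 in all libraries, and the part of these cells in the differences below was not tested. In bulk samples such as these, fewer cells of a type and less RNA per cell cannot be told apart.

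Of the 35 genes, 12 passed the threshold (edgeR's quasi-likelihood test, Benjamini-Hochberg adjusted p under 0.05 over all tested genes), which is 34.3%, against 39.9% of all tested genes. They divided into 7 higher in DISC1-Δ3 libraries and 5 lower, and among all tested genes 20.4% were higher and 19.5% lower. The share of these genes called was thus near the background. Their median log2 fold change was 0.03, and that of all tested genes 0.01. Deposited RPKM did not overlap between the groups for 17 of the 35 genes, 15 of them higher and 2 lower in DISC1-Δ3, where 52% of all tested genes were without overlap, 4957 of them higher and 2221 lower. RPKM values and fitted fold changes differ in their zero point: the fit scales libraries by the trimmed mean of M values (TMM), and a gene with equal RPKM in both groups has a fitted log2 fold change of -0.08. Overlap between groups is given for deposited RPKM unless TMM is named. With RPKM divided by the TMM factors, Myc, Mcm3, Ccnd2, Ccnd3, Ccne1 and E2f1 became lower in DISC1-Δ3 without overlap. Ccnb2, Mcm2 and Mcm6, which were higher without overlap, then overlapped. Under TMM 51.1% of all calls were higher, and with library totals alone 69.2%, with the median of all genes moved to 0.09. The same change of scaling gave 12 of the 35 genes as higher and 2 as lower, so small differences among them are relative to this choice.

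**Figure D1:**
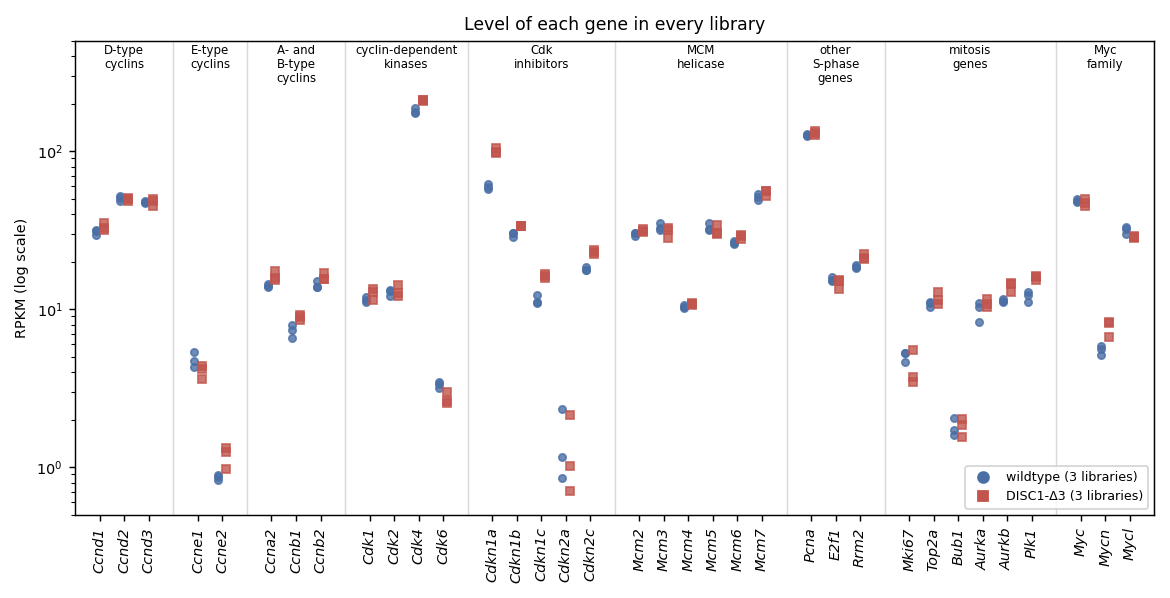
Level of the 35 genes in each library, in RPKM on a log scale, grouped by role, with circles for the 3 wildtype and squares for the 3 DISC1-Δ3 libraries. Cdk4 (175 to 212 RPKM) and Pcna (125 to 135) lead, Ccne2, Cdkn2a and Bub1 sit lowest, and for most genes the distance between groups is small beside the distance between genes.

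**Figure D2:**
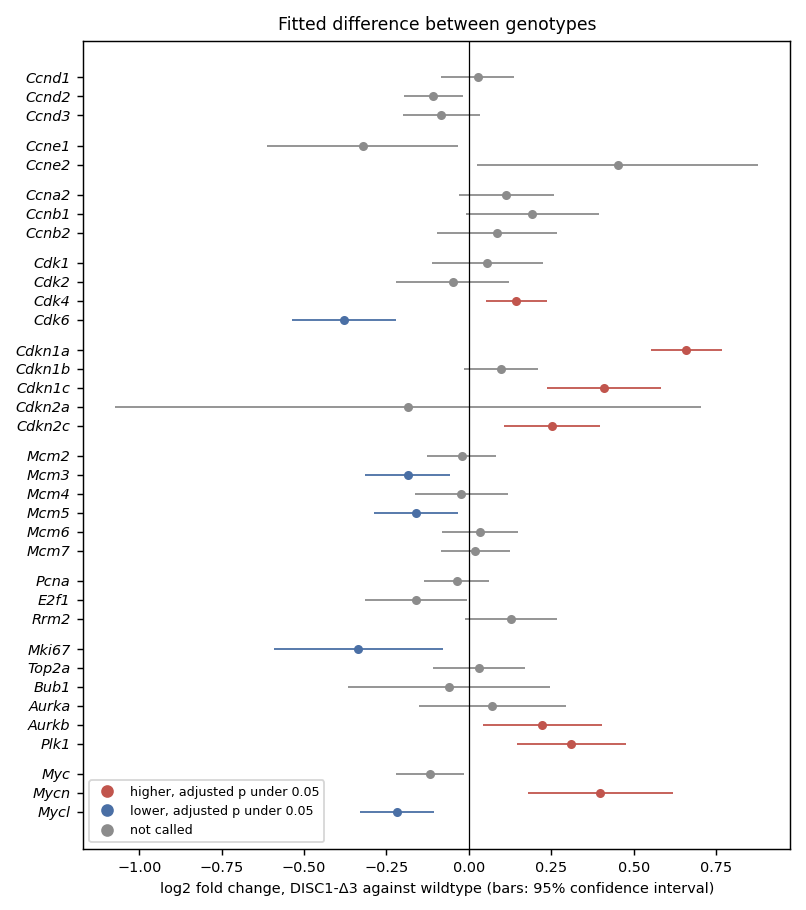
Fitted log2 fold change of each gene in DISC1-Δ3 against wildtype libraries, with points for the estimate, bars for its 95% confidence interval and colours for genes past the threshold. Cdkn1a is farthest to the right at 0.66 and Cdk6 farthest to the left at -0.38, and the widest interval is that of Cdkn2a, which had few reads.

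None of the D-type cyclins, which carry growth signals to Cdk4 and Cdk6, passed the threshold by edgeR, DESeq2 or limma, and at an unadjusted p under 0.05 edgeR gave 1 lower (Ccnd2). Ccnd1 was at 31.1, 29.4 and 31.7 RPKM in wildtype and 35.01, 31.7 and 32.7 RPKM in DISC1-Δ3 libraries. The groups overlapped at 31.7 RPKM, and the fitted log2 fold change was 0.03 with a 95% confidence interval from -0.08 to 0.14. Ccnd2 was at 52.0, 50.3 and 48.3 RPKM in wildtype against 49.7, 48.6 and 50.2 RPKM. All DISC1-Δ3 values lay inside the wildtype range, and after TMM scaling the log2 fold change was -0.11 (SE 0.042, edgeR adjusted p = 0.0525); without DISC1-Δ3 replicate 3 it was -0.11 with an edgeR adjusted p of 0.0274. Ccnd3 was at 48.2, 47.4 and 47.5 RPKM in wildtype and spread wider, at 49.9, 48.2 and 44.9 RPKM, in DISC1-Δ3 libraries. Its log2 fold change was -0.08 (interval -0.20 to 0.03). At these levels, differences between genotypes of more than 0.20 on the log2 scale lay outside all 3 intervals.

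The E-type cyclins, partners of Cdk2, were far lower in level than the D-type cyclins. Ccne1 was at 5.37, 4.73 and 4.32 RPKM in wildtype and 4.18, 4.37 and 3.60 RPKM in DISC1-Δ3 libraries. Replicate 2 of DISC1-Δ3 lay just above the lowest wildtype library, and the log2 fold change of -0.32 (SE 0.137) did not pass (edgeR adjusted p = 0.0717). Ccne2 was at 0.87, 0.83 and 0.89 RPKM in wildtype and 0.97, 1.24 and 1.33 RPKM in DISC1-Δ3 libraries, all higher but read from only 32 to 58 reads a library. Its log2 fold change was 0.45 (SE 0.202, edgeR adjusted p = 0.0864), and it passed with library totals in place of TMM (0.53, edgeR adjusted p = 0.0412). The 2 E-type cyclins thus had fitted values of opposite sign, with 0 called by edgeR, DESeq2 or limma and both under an unadjusted p of 0.05 by edgeR.

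The A- and B-type cyclins, which accumulate before mitosis, were all nominally higher in DISC1-Δ3 libraries, without overlap in RPKM and without passing the threshold. Of all tested genes 52% were without overlap, 4957 of them higher, and Ccnb2 overlapped once RPKM was divided by the TMM factors. Ccna2 was at 14.5, 13.8 and 14.0 RPKM in wildtype and 15.3, 15.7 and 17.4 RPKM in DISC1-Δ3 libraries. Its log2 fold change was 0.11 (edgeR adjusted p = 0.200). Ccnb1 was at 6.6, 8.0 and 7.38 RPKM against 9.17, 8.58 and 8.90 RPKM, a log2 fold change of 0.19 (edgeR adjusted p = 0.122). Ccnb2 was at 13.9, 15.0 and 13.9 RPKM against 15.6, 17.0 and 15.5 RPKM, a log2 fold change of 0.09 (edgeR adjusted p = 0.458). With library totals in place of TMM, Ccna2 (0.20, edgeR adjusted p = 0.0317) and Ccnb1 (0.27, edgeR adjusted p = 0.0297) passed the threshold, so their calls turned on the scaling. By edgeR 0 of the 3 were under an unadjusted p of 0.05, DESeq2 called 0, and limma called 2.

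Among the kinases, Cdk4 and Cdk6, which share the D-type cyclins as partners, moved in opposite directions. Cdk4 (Entrez 12567, chr10:127063535-127067288 on GRCm38.p6) had the highest level of all 35 genes, 175, 178 and 187 RPKM in wildtype and 208, 212 and 209.6 RPKM in DISC1-Δ3 libraries. Every DISC1-Δ3 library lay above every wildtype library, and the log2 fold change was 0.14 (SE 0.044, edgeR adjusted p = 0.0149). Its call was lost on leaving out wildtype replicate 1 (0.12, edgeR adjusted p = 0.0645), wildtype replicate 2 (0.14, 0.0645), DISC1-Δ3 replicate 1 (0.13, 0.0702) or DISC1-Δ3 replicate 2 (0.11, 0.132). Cdk6 (Entrez 12571, chr5:3341004-3531008) was at 3.48, 3.38 and 3.19 RPKM in wildtype and 2.62, 2.56 and 2.98 RPKM in DISC1-Δ3 libraries. No DISC1-Δ3 library reached the lowest wildtype value, and the log2 fold change was -0.38 (SE 0.075, edgeR adjusted p = 5.66e-04), with -0.45 when DISC1-Δ3 replicate 3, the closest to wildtype, was left out. By limma on log2(RPKM + 1) it did not pass (-0.23, limma adjusted p = 0.0567). The span of Cdk4 overlaps Tspan31 and that of Cdk6 overlaps Gm36470 and Gm29868; the library protocol does not mark strand, and reads in such overlaps cannot be told apart.

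Cdk1, the kinase of mitotic entry, was at 11.1, 11.9 and 11.4 RPKM in wildtype and 12.8, 13.5 and 11.4 RPKM in DISC1-Δ3 libraries. Cdk2, which acts in S phase, was at 13.3, 12.2 and 13.1 RPKM against 12.8, 14.3 and 12.1 RPKM. Both overlapped between the groups, with log2 fold changes of 0.06 (95% confidence interval -0.11 to 0.22) and -0.05 (-0.22 to 0.12).

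The Cdk inhibitors held the largest difference. Of the 5, edgeR and DESeq2 each called 3 higher in DISC1-Δ3 libraries and limma 4, which added Cdkn1b. Over all 13792 tested genes, edgeR called 5498 in either direction, DESeq2 4600 and limma on log2(RPKM + 1) 5757. By each of these tools 0 were lower, also at an unadjusted p under 0.05. Cdkn1a (p21; Entrez 12575, chr17:29090979-29100722), a Cip/Kip inhibitor known as a target of p53, was at 59.7, 62.0 and 58.0 RPKM in wildtype libraries. In DISC1-Δ3 libraries it was at 98.1, 105 and 96.9 RPKM. The lowest DISC1-Δ3 library was far above the highest wildtype library, and the log2 fold change was 0.66 (SE 0.051, interval 0.55 to 0.77, edgeR adjusted p = 1.27e-08). Across the 17 alternatives to the test, its value lay between 0.60 and 0.75 and kept its call.

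Cdkn1c (p57; Entrez 12577, chr7:143458339-143461059), also of the Cip/Kip family and known from timing the exit of precursors from the cycle, was at 11.0, 12.3 and 11.2 RPKM in wildtype and 16.6, 16.2 and 15.7 RPKM in DISC1-Δ3 libraries. The groups were clearly apart, and the log2 fold change was 0.41 (SE 0.082, edgeR adjusted p = 6.27e-04). Cdkn2c (p18; Entrez 12580, chr4:109660876-109666756), an INK4 inhibitor that binds Cdk4 and Cdk6, was at 18.6, 17.7 and 17.8 RPKM against 22.5, 23.6 and 23.1 RPKM. The spread within each group was under the gap between them, and the log2 fold change was 0.25 (SE 0.069, edgeR adjusted p = 7.58e-03). Its only lost call among the alternatives came without DISC1-Δ3 replicate 2, at 0.22 (edgeR adjusted p = 0.05004).

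Cdkn1b (p27), the Cip/Kip inhibitor best known in OPCs, was at 30.2, 28.8 and 30.4 RPKM in wildtype and 33.7, 33.7 and 33.7 RPKM in DISC1-Δ3 libraries. RPKM did not overlap, but the log2 fold change was 0.10 (SE 0.054, edgeR adjusted p = 0.161), and it passed with library totals in place of TMM (0.18, edgeR adjusted p = 0.0104) and by limma on log2(RPKM + 1) (0.17, limma adjusted p = 0.0101). Cdkn2a, whose transcripts encode p16 and p19Arf and were counted together, was at 2.34, 1.16 and 0.86 RPKM in wildtype and 0.71, 1.02 and 2.14 RPKM in DISC1-Δ3 libraries. These rest on 8 to 27 reads a library, and the interval of its log2 fold change (-1.07 to 0.70) excludes little. Summed over the 5 inhibitors, the level was 118 to 122 RPKM in wildtype and 172 to 180 in DISC1-Δ3 libraries.

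The MCM subunits form the ring helicase that opens DNA at replication origins. Of these, Mcm3 and Mcm5 were lower in DISC1-Δ3 libraries and the other 4 did not pass. Mcm3 (Entrez 17215, chr1:20802966-20820312) was at 35.2, 31.8 and 32.8 RPKM in wildtype and 32.9, 28.1 and 31.9 RPKM in DISC1-Δ3 libraries. These ranges overlapped, and the log2 fold change was -0.19 (SE 0.061, edgeR adjusted p = 0.0230). Leaving out wildtype replicate 1 (-0.15, edgeR adjusted p = 0.115), wildtype replicate 3 (-0.19, 0.0559) or DISC1-Δ3 replicate 2 (-0.14, 0.0995) ended the call.

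Mcm5 (Entrez 17218, chr8:75109468-75128439) was at 35.3, 31.9 and 32.4 RPKM against 34.0, 30.1 and 30.5 RPKM, also with overlap. Its log2 fold change was -0.16 (SE 0.060, edgeR adjusted p = 0.0442), and its call ended on leaving out any library but DISC1-Δ3 replicate 1 (values from -0.12 without wildtype replicate 1 or DISC1-Δ3 replicate 3 to -0.19 without wildtype replicate 2, with edgeR adjusted p of 0.0616 to 0.179 over the 5 libraries). With library totals in place of TMM neither Mcm3 (-0.10, edgeR adjusted p = 0.202) nor Mcm5 (-0.08, edgeR adjusted p = 0.312) passed.

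Mcm2, Mcm4, Mcm6 and Mcm7 had log2 fold changes between -0.02 and 0.03. Mcm7, the most abundant, was at 48.8 to 53.9 RPKM in wildtype and 52.3 to 55.7 in DISC1-Δ3 libraries, and Mcm4, the least, at 10.2 to 10.7 and 10.7 to 11.0 RPKM. Summed over the 6 subunits, the level was 180 to 187 RPKM in wildtype and 182 to 194 in DISC1-Δ3 libraries. Pcna, the sliding clamp of DNA polymerases, was at 125 to 128 RPKM and 126 to 135 RPKM (log2 fold change -0.04, 95% confidence interval -0.13 to 0.06). E2f1, a transcription factor of S-phase genes, was at 15.1 to 15.9 and 13.4 to 15.3 RPKM (log2 fold change -0.16, edgeR adjusted p = 0.0906). Rrm2, a subunit of ribonucleotide reductase, was at 18.3 to 19.0 and 20.8 to 22.5 RPKM (log2 fold change 0.13, edgeR adjusted p = 0.141), without overlap, and passed with library totals (0.21, edgeR adjusted p = 0.0163). By edgeR 0 of the 3 passed the threshold and 1, E2f1, was lower at an unadjusted p under 0.05; DESeq2 called 0 and limma 1 higher.

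The mitosis genes divided, with Plk1 and Aurkb higher and Mki67 lower. Plk1 (Entrez 18817, chr7:122159435-122169884), a kinase of mitotic entry and spindle assembly, was at 11.1, 12.8 and 12.3 RPKM in wildtype and 15.3, 16.2 and 16.01 RPKM in DISC1-Δ3 libraries. All DISC1-Δ3 values were above all wildtype values, and the log2 fold change was 0.31 (SE 0.079, edgeR adjusted p = 4.31e-03), kept as a call in all 17 alternatives with values from 0.25 to 0.40. Aurkb (Entrez 20877, chr11:69045624-69051664), the kinase of the chromosomal passenger complex, was at 11.2, 11.2 and 11.6 RPKM against 14.7, 14.5 and 12.8 RPKM. DISC1-Δ3 replicate 3 was the closest of its group to wildtype, and the log2 fold change was 0.22 (SE 0.086, edgeR adjusted p = 0.0479). The call ended on leaving out any one of the other 5 libraries (0.16 without DISC1-Δ3 replicate 1 to 0.24 without wildtype replicate 3, edgeR adjusted p 0.0824 to 0.204), and without DISC1-Δ3 replicate 3 it was 0.29 (edgeR adjusted p = 5.64e-03).

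Mki67 (Entrez 17345, chr7:135689784-135716450), which encodes the proliferation antigen Ki-67, was at 5.31, 5.31 and 4.61 RPKM in wildtype and 3.45, 3.71 and 5.52 RPKM in DISC1-Δ3 libraries. Replicates 1 and 2 of DISC1-Δ3 were below every wildtype library, and replicate 3 was above all of them. Over all libraries the log2 fold change was -0.34 (SE 0.121, edgeR adjusted p = 0.0357). Without DISC1-Δ3 replicate 3 it was -0.57 (edgeR adjusted p = 3.69e-07), and the call ended without wildtype replicate 1 (-0.30, 0.132), wildtype replicate 2 (-0.30, 0.131), DISC1-Δ3 replicate 1 (-0.24, 0.105) or DISC1-Δ3 replicate 2 (-0.26, 0.0870), and with library totals in place of TMM (-0.25, 0.133).

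DISC1-Δ3 replicate 3 differed from replicates 1 and 2 by transcript length. The median difference in log2 CPM (reads scaled by library total) over all tested genes was -0.06 for transcripts under 1 kb and 0.14 for those over 6 kb, with lengths worked out from counts and RPKM. Wildtype replicate 3 differed from wildtype replicates 1 and 2 the other way, at 0.05 under 1 kb and -0.06 over 6 kb. Mki67 (9.33 kb) and Cdk6 (11.4 kb) were the 2 genes of the 35 over 6 kb, and DISC1-Δ3 replicate 3 was higher by 0.60 and 0.17 there. For wildtype replicate 3 the differences of these genes were -0.21 and -0.10. With the length trend removed from every library, an alternative chosen after seeing the data, Mki67 had a log2 fold change of -0.28 (edgeR adjusted p = 0.0172). Cdk6 then had one of -0.30 (edgeR adjusted p = 1.30e-03), against -0.38 in the main fit.

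**Figure D3:**
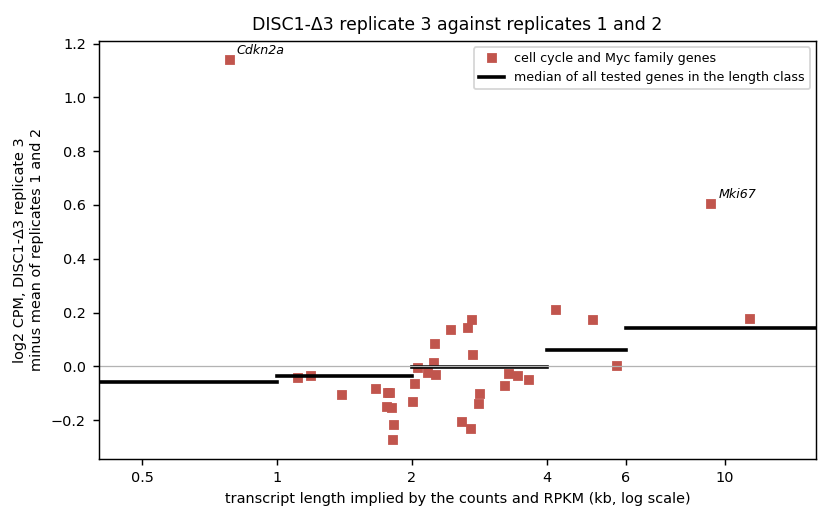
Difference in log2 CPM between DISC1-Δ3 replicate 3 and the mean of replicates 1 and 2 (vertical axis) against implied transcript length in kb on a log scale, with squares for the 35 genes and black lines for the median of all tested genes in each length class. The class medians climb from -0.06 to 0.14 with length; Mki67 lies above its class at 0.60, and Cdkn2a at 1.14 rests on few reads.

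The other mitosis genes overlapped between the groups. Top2a, the topoisomerase that untangles sister chromatids, was at 10.3 to 11.1 RPKM in wildtype and 10.9 to 12.8 in DISC1-Δ3 libraries, with a log2 fold change of 0.03. Bub1, a spindle checkpoint kinase, was at 1.59 to 2.06 and 1.56 to 2.02 RPKM (log2 fold change -0.06), and Aurka, a kinase of spindle poles, at 8.26 to 10.9 and 10.3 to 11.5 RPKM (0.07). Their edgeR adjusted p lay between 0.632 and 0.767.

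The Myc family differed among its members: Mycn was higher, Mycl lower, and Myc did not pass. Mycn (Entrez 18109, chr12:12936093-12941836) was at 5.61, 5.83 and 5.16 RPKM in wildtype and 6.64, 8.18 and 8.26 RPKM in DISC1-Δ3 libraries. DISC1-Δ3 replicate 1 lay closest to wildtype but above all of it, and the log2 fold change was 0.40 (SE 0.104, edgeR adjusted p = 5.60e-03), with 0.33 to 0.48 over the 17 alternatives and a call in each. Mycl (Entrez 16918, chr4:122995588-123002490) was at 33.1, 32.0 and 29.8 RPKM against 29.1, 28.0 and 28.7 RPKM. The groups came close at 29.8 and 29.1 RPKM without meeting, and the log2 fold change was -0.22 (SE 0.053, edgeR adjusted p = 3.28e-03). By limma on log2(RPKM + 1) it was -0.14 (limma adjusted p = 0.0511).

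Myc was at 49.7, 47.4 and 48.2 RPKM in wildtype and 45.2, 46.7 and 49.6 RPKM in DISC1-Δ3 libraries, a range that covered the wildtype values almost whole. Divided by the TMM factors, the groups did not overlap, at 48.8 to 51.0 in wildtype and 44.1 to 47.6 in DISC1-Δ3 libraries. The log2 fold change of Myc was -0.12 (SE 0.049, edgeR adjusted p = 0.0642), and -0.15 without DISC1-Δ3 replicate 3 (edgeR adjusted p = 0.0141). It also passed with the filterByExpr filter (-0.13, edgeR adjusted p = 0.0433) and with the length trend removed (-0.13, edgeR adjusted p = 0.0496). Per length, Myc and Mycl were the abundant members and Mycn the scarce one in both genotypes, and the sum of the 3 was 83.1 to 88.4 RPKM in wildtype and 80.9 to 86.6 in DISC1-Δ3 libraries.

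**Figure D4:**
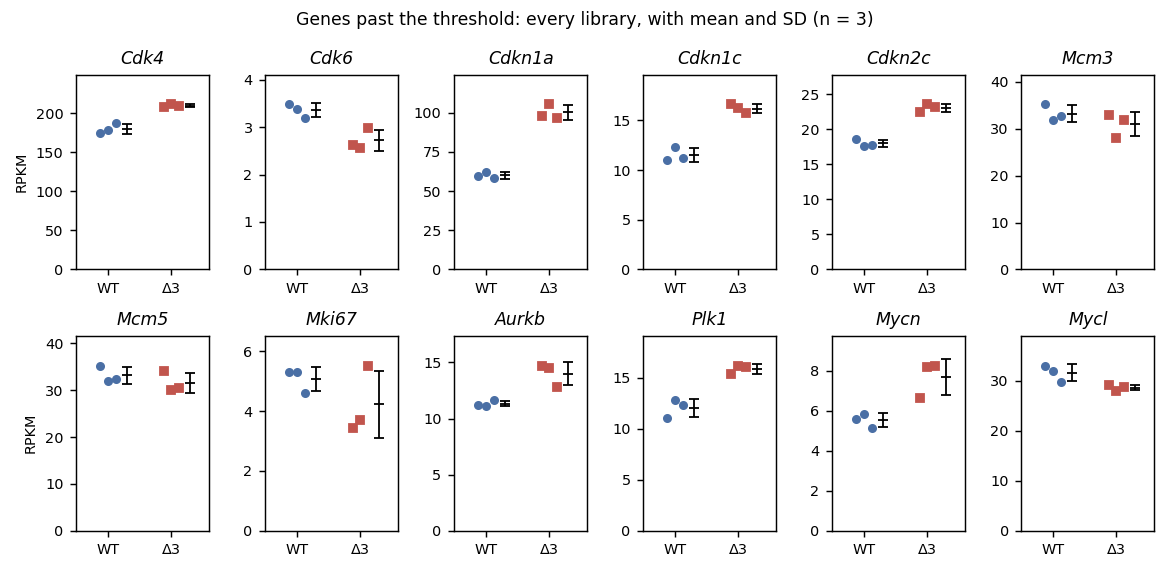
RPKM of the 12 genes past the threshold in each wildtype (WT, circles) and DISC1-Δ3 (Δ3, squares) library, with the mean and SD of the 3 libraries beside them and axes from 0. Cdkn1a shows the widest gap between groups, the groups overlap for Mcm3, Mcm5 and Mki67, and for Mki67 DISC1-Δ3 replicate 3 stands at 5.52 above the 3.45 and 3.71 of its group.

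Other genes of the cell cycle and the Myc network, from 8 lists of 187 genes named for their roles, gave 24 higher and 19 lower of 185 tested (23.2%), against the 39.9% of all tested genes. Replication origin and fork genes had 2 higher and 2 lower of 39 tested: Cdc45, of the replicative helicase, was higher (log2 fold change 0.31), and so was Rpa1, which coats single-stranded DNA (0.17). Fen1, the flap nuclease, was lower (-0.28), as was the licensing factor Cdt1 (-0.23). Nucleotide synthesis genes had 3 higher and 1 lower of 16, with Ctps (0.36), Dck (0.29) and Impdh2 (0.18) higher and Tk1, thymidine kinase, lower (-0.28). The mitotic spindle and kinetochore list had 4 higher and 0 lower of 44 by edgeR (9 and 2 at an unadjusted p under 0.05; 4 and 0 called by DESeq2, 11 and 0 by limma on log2(RPKM + 1)), namely Prc1 (0.31), Tpx2 (0.26), Ube2c (0.26) and Racgap1 (0.21), which act in spindle assembly, mitotic exit and cytokinesis.

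Among E2F, Rb and DREAM genes 3 were higher and 1 lower of 18: E2f6 (0.42), E2f5 (0.29) and the E2F partner Tfdp1 (0.26) were higher, and E2f3 was lower (-0.38). The cyclin-Cdk regulators had 1 higher and 2 lower of 20, with the phosphatase Cdc25b at 0.32, the anaphase-promoting complex inhibitor Fbxo5 at -0.42 and Ccng2 at -0.22. Genes known as p53 targets moved both ways, 5 higher and 5 lower of 15 tested. The 5 higher were Plk2 (0.42), Phlda3 (0.40), Gtse1 (0.35), Sesn2 (0.33) and Zmat3 (0.25). The 4 with the largest differences were all lower. Pmaip1 was at 14.8 to 14.9 RPKM in wildtype and 6.88 to 9.68 in DISC1-Δ3 libraries (-0.97), and Trp53inp1 at 3.87 to 4.10 and 1.68 to 2.84 RPKM (-0.95). Btg2 was at 151 to 158 and 86.4 to 93.2 RPKM (-0.86) and Bbc3 at 25.0 to 26.0 and 18.2 to 19.7 RPKM (-0.49). Each of these 4 lower genes was without overlap between the groups, as were 52% of all tested genes.

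Myc partners and antagonists had 3 higher and 5 lower of 14. Mlxip and Mlxipl, glucose-sensing relatives that pair with Mlx, were lower (-0.76 and -0.52), and so was Mnt, a repressor that competes for Max (-0.41), while Zbtb17, a Myc-binding zinc finger protein, was higher (0.32). Ribosome biogenesis genes known as Myc targets had 3 higher and 3 lower of 20, with the nucleolar proteins Nolc1 (0.32) and Bop1 (0.26) higher and Gnl3 (-0.40) and Npm1 (-0.38) lower. RPKM of both lower genes overlapped between the groups.

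**Figure D5:**
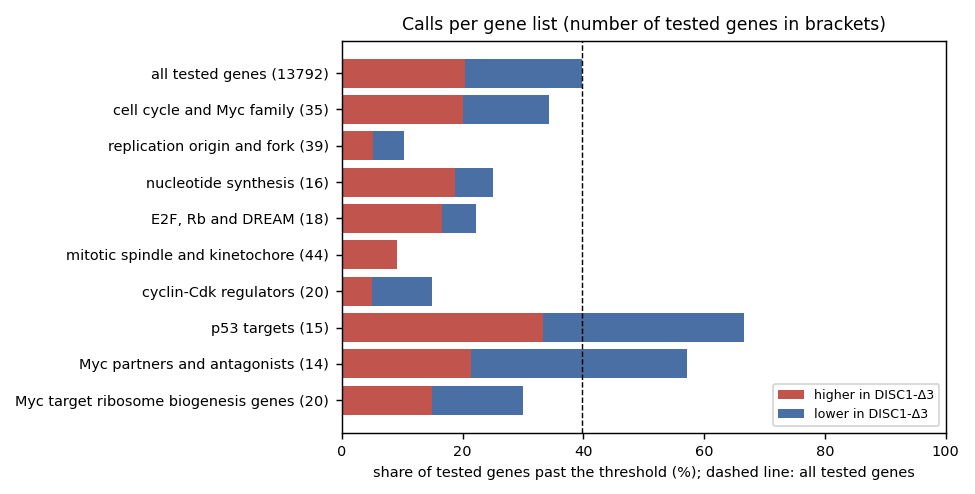
Share of tested genes past the threshold in each list, in percent, with genes higher in DISC1-Δ3 and lower in DISC1-Δ3 as parts of each bar, the number tested in brackets and a dashed line at the 39.9% of all tested genes. The 35 genes reach 34.3%, the mitotic spindle list 9.09% and the replication list 10.3%, and the p53 target list 66.7% with equal parts higher and lower.

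Sequence upstream of the start sites was compared for motifs known from cell cycle promoters. RefSeq promoter windows (GRCm38.p6) were found for 27 of the 35 genes, 32 windows in all, and the 250 bases before each start were searched on both strands. The search was not trimmed for exons, so it included bases left out of the display below, 78 for Mycn and 41 for Mcm5. E2F words (TTTCCCGC, TTTGGCGC, TTTGCCGC or TTTCGCGC) were in 21.9% of these windows and in 1.86% of all 32851 promoter windows. They were found for Mcm6, Cdkn2a, Mcm7, Mcm5, Cdk1, Cdk2 and Mycn, of which Mycn was higher, Mcm5 lower and 5 not called. The CCAAT box (CCAAT) was in 59.4% against 33.8%, the GC box (GGGCGG) in 78.1% against 32.7%, and the CHR element (TTTGAA or TTCGAA) in 21.9% against 17.1%. The E-box that Myc proteins bind (CACGTG) was in 6.25% against 6.02%, those of Cdk6 and Cdk4, and TCF words (CTTTGAT or CTTTGAA, the second of which contains a CHR word) in 9.38% against 7.48%. A match describes the letters and not a bound site.

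The windows of 4 genes past the threshold are shown, 5′ to 3′ on the gene's strand. They belong to the gene with the largest difference (Cdkn1a, second start site) and a mitotic kinase that was higher (Plk1). The others are genes with E2F words that moved in opposite directions (Mcm5 and Mycn). Counts per gene do not tell start sites apart. Capitals mark E2F words (TTTCGCGC and TTTGGCGC or their complements), CCAAT and GGGCGG. Bases from where an annotated exon of the gene or its RefSeq span begins were left out. The Cdkn1a window lies inside the span of its own gene and was trimmed for exons only, which left all 250 bases.
Cdkn1a, chr17:29093519-29093768, plus strand: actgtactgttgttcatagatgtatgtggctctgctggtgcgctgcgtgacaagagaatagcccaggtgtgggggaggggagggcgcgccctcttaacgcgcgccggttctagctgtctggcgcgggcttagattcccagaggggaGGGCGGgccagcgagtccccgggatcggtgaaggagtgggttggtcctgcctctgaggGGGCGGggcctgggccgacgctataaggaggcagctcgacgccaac
Plk1, chr7:122159185-122159434, plus strand: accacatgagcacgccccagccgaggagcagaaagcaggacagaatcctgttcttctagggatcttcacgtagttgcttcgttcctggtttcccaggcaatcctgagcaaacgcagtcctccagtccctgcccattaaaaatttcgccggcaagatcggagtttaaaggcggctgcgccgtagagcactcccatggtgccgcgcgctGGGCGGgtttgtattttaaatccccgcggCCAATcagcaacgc
Mcm5, chr8:75109259-75109467, plus strand: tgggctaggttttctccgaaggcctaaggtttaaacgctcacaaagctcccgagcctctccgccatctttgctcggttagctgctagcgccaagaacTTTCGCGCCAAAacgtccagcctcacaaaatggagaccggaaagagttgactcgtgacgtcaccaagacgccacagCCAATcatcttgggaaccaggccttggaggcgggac
Mycn, chr12:12941915-12942086, minus strand: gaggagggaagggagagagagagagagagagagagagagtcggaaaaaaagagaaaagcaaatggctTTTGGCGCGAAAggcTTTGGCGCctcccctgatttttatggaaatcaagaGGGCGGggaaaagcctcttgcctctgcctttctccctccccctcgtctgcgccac
The Cdkn1a window shown held 2 GC boxes and no E2F word, and the Plk1 window 1 GC box and 1 CCAAT box. At the first Cdkn1a start site, which is not shown, the 247 bases kept held no match to any of the words. A p53 motif was not among the words searched. In Mcm5 and Mycn a forward E2F word overlapped one on the other strand, and Mycn held another downstream of it.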

How the data were processed

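Bulk RNA-seq of freshly isolated OPCs was analysed from 6 libraries. Per the labels, RNA was purified with oligo(dT) beads, primed with random hexamers, and sequenced as single-end 50-base reads on a BGISEQ-500. The submitters' processing notes name Bowtie2 (2.2.5) and mm10; the counting tool and annotation are not given in the sources used here. The authors deposited an expected count and an RPKM (to 2 decimals) for each of 18211 genes. Of the expected counts above 0, 90.2% are whole. Another 4 columns hold group averages and were not used.

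Counts were rounded and tested with edgeR (4.0.16, R 4.3.3; glmQLFit and glmQLFTest, TMM scaling, genotype as the only term, two-sided), where 3 or more of the 6 libraries had an RPKM of 0.5 or higher. Adjusted p-values (Benjamini-Hochberg) cover every tested gene, and those under 0.05 were called. DESeq2 (1.42.0), which the study's methods name, and limma-trend (3.58.1) on log2(RPKM + 1) or log2(RPKM + 0.1) were alternatives, with other filters, scalings, a replicate block and leaving out each library. Correlations of deviations from group means between libraries of the same number were 0.04, 0.03 and -0.03. Between libraries of different numbers they were -0.05 to 0.03. With 3 libraries a group, such correlations cannot exclude a pairing by replicate number. The edgeR, DESeq2 and limma fits were tested on simulated data. The members and gene lists were chosen with earlier results of these data known. All 35 genes were accounted for, with each library's value for those past the threshold, the D-type cyclins, Cdk inhibitors and Myc family, and also for the other cyclins and Cdk1 and Cdk2. From each related list at most 4 genes past the threshold with the largest fold changes were named, and for the p53 targets also the 5 higher genes. Marker lists were summarised by counts and summed RPKM. Precision depends on depth and on the spread between libraries: genes with few reads, such as Cdkn2a, have wide intervals. Mki67, on 465 to 835 reads a library, had an SE of 0.121, and Plk1, on 313 to 541 reads, of 0.079. Gene positions and promoter windows are from RefSeq (GRCm38.p6, the build of mm10), trimmed for display with GENCODE exons.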

Additional observations from a re-analysis of the deposited data

How the results depend on the processing

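Over 17 alternatives to the test, the calls of Cdkn1a, Cdkn1c, Plk1 and Mycn held in each. With library totals 12 of the 35 genes were higher and 2 lower, their median log2 fold change was 0.11, and the related lists had 47 higher and 12 lower. With RPKM sums these were 12, 1, 0.11, 46 and 11. By limma on log2(RPKM + 1) 11 were higher and 0 lower (median 0.10, related lists 44 higher), and on log2(RPKM + 0.1) 11 and 0 (median 0.11, related lists 42 higher). At an unadjusted p under 0.05 limma gave 2 lower with either pseudocount. Neither Mcm3 nor Mcm5 nor Mki67 nor Cdk6 nor Mycl passed by limma. With the filterByExpr filter 7 were lower, Ccnd2 and Myc added. DESeq2 gave 3 lower, without Mcm5 and Mki67, and did not call Aurkb. RPKM is scaled to library totals, as in the first of these settings; the cause of the DESeq2 difference was not tested. Leaving out each library in turn gave 4 to 7 higher and 2 to 6 lower genes, medians of -0.0079 to 0.0530, and 15 to 26 higher and 13 to 28 lower in the related lists, with 4342 to 6232 calls over all genes. The fewest higher genes, 4, came without DISC1-Δ3 replicate 2, and 2 lower without it or wildtype replicate 1. With a replicate block, 6 genes were higher and 5 lower among 5429 calls; Mki67 and Aurkb lost their call and Ccnd2 gained one.

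Signs turned for 34 values, none of them of a called gene. With library totals, Cdk2 was at 0.0336, Mcm2 at 0.0603, Mcm4 at 0.0592, Pcna at 0.0454 and Bub1 at 0.0217. With RPKM sums the same genes were at 0.0370, 0.0636, 0.0624, 0.0489 and 0.0263, and Ccnd3 at 0.0023. By limma with a pseudocount of 1 they were at 0.0200, 0.0572, 0.0521, 0.0421 and 0.0140, and with 0.1 at 0.0212, 0.0589, 0.0565, 0.0424 and 0.0207. Leaving out single libraries, the range was -0.0351 to 0.0507 for Ccnd1, -0.0227 to 0.1241 for Cdk1, -0.7480 to 0.2878 for Cdkn2a, -0.0079 to 0.0612 for Mcm6, -0.0133 to 0.0540 for Mcm7, -0.0357 to 0.0580 for Top2a, -0.1413 to 0.0554 for Bub1 and -0.0408 to 0.1502 for Aurka. Ccne2 was not tested with a minimum RPKM of 1. At this depth, the log2 fold change of Cdkn2a, on 8 to 27 reads a library, is known only to lie between -1.07 and 0.70 (95% confidence interval).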
